A study of Mus musculus with 8 samples.

Results

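Khk, Tkfc, Slc2a2, Slc2a5, Slc2a8, Gckr, Pklr and Sord encode hexose transporters, enzymes of fructose and glucose metabolism and a regulatory protein of glucose phosphorylation. These 8 genes were picked by symbol from the 46078 genes of a liver count table, and all 8 had enough reads to be tested. The livers came from mice that drank water with 30% (w/v) fructose beside a control diet for 22 weeks, starting at 8 weeks of age. The 5 WT livers were from mice with LoxP sites on both Rbfox2 alleles and no Cre, so the controls carry the floxed alleles too. The 3 Rbfox2 KO livers had the same alleles and Cre under the albumin promoter, which removes the splicing factor RBFOX2 mainly from hepatocytes and leaves the other liver cells with their Rbfox2. Livers were taken after a fast, poly(A) RNA was sequenced, and each liver is 1 library. No group without fructose is part of the comparison, so the values show differences between genotypes on fructose and not the response to the sugar.

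Fructose is cleared by the liver through a short route that bypasses the main control step of glycolysis. It enters from the portal blood through facilitative transporters, ketohexokinase makes fructose 1-phosphate, and after this is split triokinase phosphorylates the glyceraldehyde that is released. Fructose 1-phosphate also acts on the regulatory protein that restrains glucose phosphorylation in hepatocytes. The liver also makes fructose from glucose by way of sorbitol, and the carbon of both sugars passes pyruvate kinase on its way to pyruvate and fat.

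None of the 8 genes passed an adjusted p of 0.05 between the genotypes; the adjusted p was 0.663 for Pklr and 0.99997 for each of the other 7 (edgeR). The gene with the largest difference was Pklr, liver pyruvate kinase, whose mean level in the Rbfox2 KO livers was 76.3% of the WT mean and whose groups did not overlap. Slc2a2, the main transporter, had nearly the same level in both genotypes. Khk, the first enzyme of fructolysis, varied more between WT mice than its group means differed, and Tkfc, the triokinase gene, was lowest in the WT liver with the most Khk transcript.

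The libraries held 24829693 to 37823155 counts. Values are counts scaled to library size (CPM) with TMM factors of 0.821 to 1.29, and 3 counts corresponded to 0.0839 to 0.118 CPM. Rbfox2 itself was measured at 13.96, 20.5, 19.0, 17.9 and 23.2 CPM in WT livers 1 to 5 and at 6.84, 8.61 and 12.4 CPM in Rbfox2 KO livers 1 to 3, with no overlap. Its log2 fold change was -1.03 ± 0.21 (SE), with an adjusted p of 0.328 in edgeR and of 0.00182 in DESeq2. The edgeR quasi-likelihood test called 0 of 14654 genes (0%) at an adjusted p of 0.05 and 694 (4.74%) at an unadjusted p of 0.05, and DESeq2 called 59 (0.409%) at the adjusted threshold. Hepatocyte markers summed to 70151 to 75923 CPM in WT livers and to 64701, 73751 and 77553 CPM in Rbfox2 KO livers 1 to 3. Rbfox2 KO 1, the liver with the TMM factor of 1.29, had 6.71% of its counts from major urinary protein (Mup) genes. That share was 17.9 to 35.5% in the other livers. Skeletal muscle markers summed to 140.3 CPM in Rbfox2 KO 1, 159.5 CPM in WT 4 and 235.5 CPM in WT 5, while the remaining 5 livers had 0.983 to 29.7 CPM. Pancreatic acinar markers summed to 463 CPM in Rbfox2 KO 1 and to 4.78 to 17.2 CPM elsewhere. Fewer cells of a type and less RNA per cell cannot be told apart in such bulk samples.

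Some of these genes have sequence that bears on how their counts are read. The Khk locus holds a pair of alternative exons of 135 bases each, at chr5:30926688-30926822 and chr5:30927022-30927156 on the plus strand of GRCm38. The upstream exon is known as 3A and gives the widely expressed enzyme form, and the downstream exon is known as 3C and gives the high-affinity form that predominates in liver. They are shown since a gene count adds both forms together.
Khk upstream exon: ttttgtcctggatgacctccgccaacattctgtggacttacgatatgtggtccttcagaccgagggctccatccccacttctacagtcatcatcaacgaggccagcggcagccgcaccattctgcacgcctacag
Khk downstream exon: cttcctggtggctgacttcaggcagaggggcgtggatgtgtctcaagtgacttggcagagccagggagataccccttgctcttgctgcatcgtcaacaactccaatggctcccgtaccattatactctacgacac
The exons are identical at 73 of 135 aligned positions (54.1%) and lie 199 bases apart. Each is part of 2 of the 4 annotated coding transcripts, with 1 transcript holding both and 1 holding neither. No letters are in capitals because neither exon holds GCATG, the motif that RBFOX proteins are known to bind; the introns were not searched. Each exon makes up 7.51% of the merged exon length of Khk, and the counts per gene do not show which of them was used.

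All 8 genes were found in the RefSeq promoter table (GRCm38.p6), which gave 9 windows of 300 bases, from 250 bases before to 50 bases after a start. Letters were searched for on both strands for an E-box, CACGTG, and for a spaced pair of E-box-like sites, CACGNG followed after 5 bases by CNCGTG, as in the carbohydrate response element known from the liver-type Pklr promoter. The patterns are the same on both strands and can overlap, although they did not do so here. Among all 32851 windows of this length 7.15% held the E-box and 15 (0.0457%) held the spaced pair. Among the windows of the 8 genes 1 held each. They are printed with the match in capitals, Khk from chr5:30921309-30921608 and Pklr from chr3:89136373-89136672, both on the plus strand.
Khk promoter window: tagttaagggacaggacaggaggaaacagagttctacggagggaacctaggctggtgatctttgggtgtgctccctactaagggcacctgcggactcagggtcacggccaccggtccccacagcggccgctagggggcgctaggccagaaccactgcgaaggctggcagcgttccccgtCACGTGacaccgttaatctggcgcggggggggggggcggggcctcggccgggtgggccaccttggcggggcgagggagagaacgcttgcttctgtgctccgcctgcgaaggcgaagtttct
Pklr promoter window: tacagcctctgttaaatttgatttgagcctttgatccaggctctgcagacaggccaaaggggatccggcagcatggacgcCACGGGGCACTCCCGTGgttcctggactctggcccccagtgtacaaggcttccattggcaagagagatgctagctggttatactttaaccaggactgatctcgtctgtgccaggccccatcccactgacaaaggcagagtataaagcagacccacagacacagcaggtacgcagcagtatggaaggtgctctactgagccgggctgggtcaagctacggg
The E-box of Khk begins 71 bases before the start and the spaced pair of Pklr 170 bases before the start. The other Pklr window, at chr3:89135892-89136191, belongs to an upstream start and held neither. The matches describe these letters and are not evidence of binding in these livers.

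Levels of different genes were compared as CPM per kb of merged exon length. Sord, which turns sorbitol into fructose, had the highest level, 409 ± 29.9 CPM per kb in WT livers (SD, n = 5) and 365 ± 56.7 in Rbfox2 KO livers (SD, n = 3). Khk followed at 141 ± 32.5 and 135 ± 14.3 CPM per kb. Both were above every other gene in the group in all 8 livers. Slc2a2 (28.0 ± 1.65 and 28.4 ± 2.86 CPM per kb), Gckr (26.2 ± 2.17 and 23.8 ± 1.74) and Tkfc (22.6 ± 2.20 and 26.0 ± 1.90) lay close together. Slc2a2 was above Gckr in 7 of 8 livers and Gckr above Tkfc in 5 of 8, so on this measure the order within these 3 is within their spread. The measure depends on the length chosen. The longest coding transcript has 5569 bases against 5755 merged bases for Slc2a2, but 2272 against 4335 for Gckr and 2758 against 4617 for Tkfc. Levels per length of that transcript were not computed, and the closeness of these 3 holds for merged exons only. Pklr was below Tkfc in every liver, at 15.6 ± 1.45 and 11.9 ± 1.02 CPM per kb. Slc2a8 (2.11 ± 0.329 and 1.79 ± 0.420 CPM per kb) was above Slc2a5 (1.10 ± 0.200 and 1.33 ± 0.441) in 8 of 8 livers, although their ranges overlapped.

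**Figure D1:**
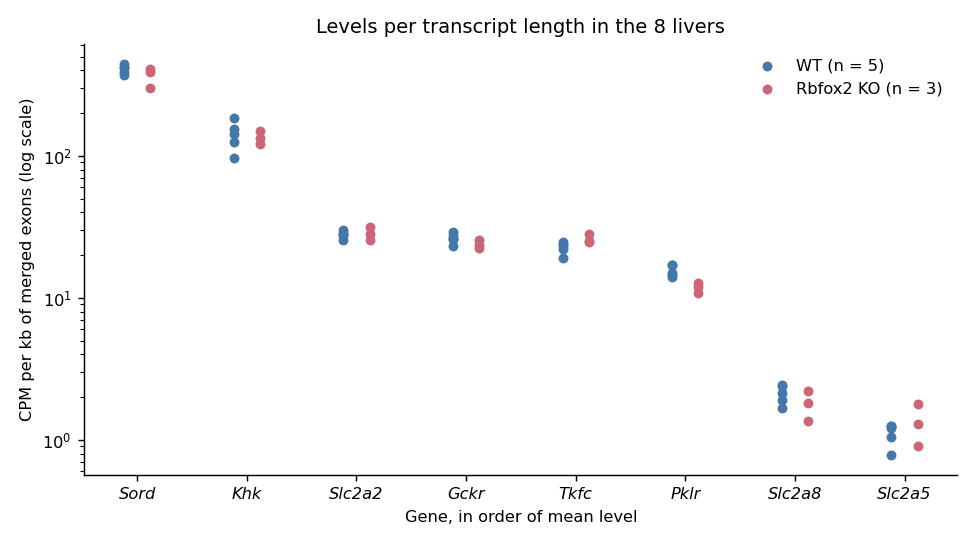
CPM per kb of merged exon length on a log axis for the 8 genes, in order of their mean, with 1 point per liver (5 WT, 3 Rbfox2 KO). Sord and Khk stand above the rest in every liver, Slc2a2, Gckr and Tkfc share a range, and Slc2a8 and Slc2a5 are lowest.

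Slc2a2 encodes GLUT2, the low-affinity glucose and fructose transporter of the hepatocyte surface. It was at 160, 174, 148, 165 and 158 CPM in WT livers 1 to 5 and at 148, 163 and 180.5 CPM in Rbfox2 KO livers 1 to 3. The lowest and the highest of the 8 values were both from Rbfox2 KO livers, and the groups overlapped. The means were 161 ± 9.51 and 164 ± 16.5 CPM, and the log2 fold change was 0.02 ± 0.10 (SE) with a 95% interval from -0.20 to 0.25, or 0.871 to 1.19 times the WT level. The unadjusted p was 0.824 (edgeR). The direction turned when Rbfox2 KO 3 was left out, to -0.05.

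Slc2a2 made up 73.6 ± 1.57% of the CPM per kb of 12 Slc2a genes in WT livers and 75.0 ± 1.19% in Rbfox2 KO livers, and from 71.5 to 76.4% in single livers. Slc2a9, which mainly carries urate, held 12.5 ± 0.738% and 12.02 ± 0.420%. Slc2a8 held 5.59 ± 1.02% and 4.70 ± 0.711%. Slc2a1, the transporter of most cell types at rest, held 4.12 ± 0.566% and 3.58 ± 1.004%, and Slc2a5 held 2.91 ± 0.566% and 3.50 ± 1.07%.

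Slc2a5 encodes GLUT5, the fructose transporter best known from the gut. It was at 4.10, 4.23, 4.25, 2.66 and 3.55 CPM in the WT livers and at 3.11, 6.10 and 4.39 CPM in the Rbfox2 KO livers, on 76 to 157 counts. Rbfox2 KO 2 was highest, WT 4 was lowest, and the groups overlapped. The log2 fold change was 0.27 ± 0.23 (95% interval -0.24 to 0.78, edgeR unadjusted p = 0.273). Without Rbfox2 KO 2 it came to -0.00234, so the higher mean rests on that liver. The 6 enterocyte markers summed to 1751 to 3881 CPM in WT and 1899 to 6968 CPM in Rbfox2 KO livers, nearly all of it from Apoa4 (1627 to 6834 CPM) and Fabp2 (88.5 to 170.4 CPM), which hepatocytes also express. Of the other 4, Sis and Alpi had 0 counts in every liver, Lct at most 1 and Vil1 at most 5, and their part in the Slc2a5 values was not tested.

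Slc2a8 encodes GLUT8, a transporter of internal membranes. It was at 5.35, 6.14, 7.73, 6.85 and 7.84 CPM in the WT livers and at 4.36, 5.86 and 7.05 CPM in the Rbfox2 KO livers, on 139 to 265 counts. Rbfox2 KO 1 was lowest, WT 5 was highest, and the groups overlapped. The log2 fold change was -0.24 ± 0.18 (95% interval -0.64 to 0.17, edgeR unadjusted p = 0.224). It was 0.01 without WT 4, WT 5 and Rbfox2 KO 1, the 3 livers with the highest muscle marker sums.

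**Figure D2:**
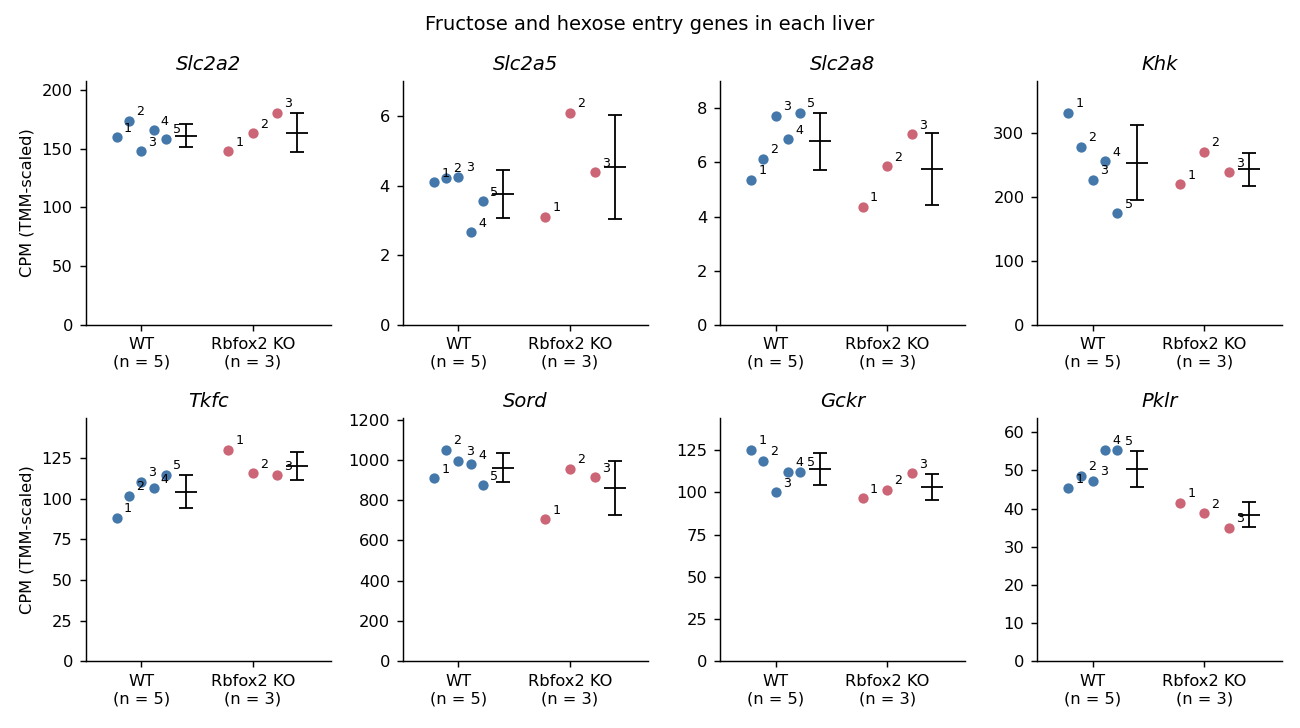
TMM-scaled CPM of each gene in each liver, numbered by replicate, with the mean and SD of each group as a bar beside the points and every axis starting at 0. Pklr is the gene whose groups do not overlap. Relative to its mean, Khk shows the widest scatter among WT livers, from 174 to 331 CPM.

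Khk encodes ketohexokinase, which phosphorylates fructose at carbon 1. It was at 331, 278, 227, 256 and 174 CPM in the WT livers and at 219, 270.1 and 238 CPM in the Rbfox2 KO livers. The 3 Rbfox2 KO values lay inside the WT range. The means were 253 ± 58.4 and 243 ± 25.8 CPM, and the log2 fold change was -0.06 ± 0.18 (95% interval -0.47 to 0.34, edgeR unadjusted p = 0.744). The sign turned to 0.05 when libraries were scaled by their totals alone, a scaling that moved the median of all tested genes to 0.12, and also to 0.05 without WT 1. The coefficient of variation among WT livers was 23.1%. The biological coefficient of variation that edgeR fitted was 18.6%, at percentile 52.0 of all tested genes, although its level was at percentile 97.2.

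Tkfc encodes triokinase, which phosphorylates the glyceraldehyde made from fructose 1-phosphate. It was at 88.4, 102, 110.5, 106 and 115 CPM in the WT livers and at 130.3, 116 and 114 CPM in the Rbfox2 KO livers. Rbfox2 KO 1 was highest and WT 1 lowest, and only Rbfox2 KO 3 lay within the WT range, just below WT 5. The means were 104 ± 10.2 and 120.2 ± 8.78 CPM, and the log2 fold change was 0.20 ± 0.11 (95% interval -0.03 to 0.44, edgeR unadjusted p = 0.0842). The two-sided exact permutation test of the means gave p = 0.0714, where the smallest value that 56 splits allow is 0.0179. With 1 liver left out the log2 fold change ran from 0.14 without Rbfox2 KO 1 to 0.24 without WT 5. The unadjusted edgeR p was 0.0480 in the fit without WT 5, picked because its change was the largest of these 8 fits. The other 11 alternatives gave log2 fold changes of 0.20 to 0.33. Tkfc passed the adjusted threshold in 0 of all 19. Of the merged Tkfc exons 20.01% lie opposite exons of Cyb561a3 (2.77 to 5.56 CPM) or Ddb1 (123 to 141 CPM). Reads were aligned with a setting for strand-specific libraries, but how the counting treated strand is not given in the sources used here.

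Khk and Tkfc both act on the carbon of fructose, yet their transcripts ran in opposite directions across livers. Pearson's r of log2 CPM over the 8 livers was -0.71, Spearman's rho was -0.69, and r was -0.89 within genotypes and -0.68 without the 2 livers farthest in Khk. These points share libraries and scaling and are given as a description. The ratio of Khk to Tkfc CPM was 3.74 in WT 1 and 1.51 in WT 5, the highest and the lowest of all livers, and it was 1.68, 2.33 and 2.08 in the Rbfox2 KO livers. The log2 ratio was 1.25 ± 0.48 in WT and 1.01 ± 0.24 in Rbfox2 KO livers (exact permutation p = 0.464). Tkfc and Gckr also ran in opposite directions, with r = -0.85, and -0.57 without the 2 livers farthest in Tkfc. Among all pairs of the 8 genes these 2 pairs had the largest absolute r. The extremes of many pairs over 8 points are high by selection.

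**Figure D3:**
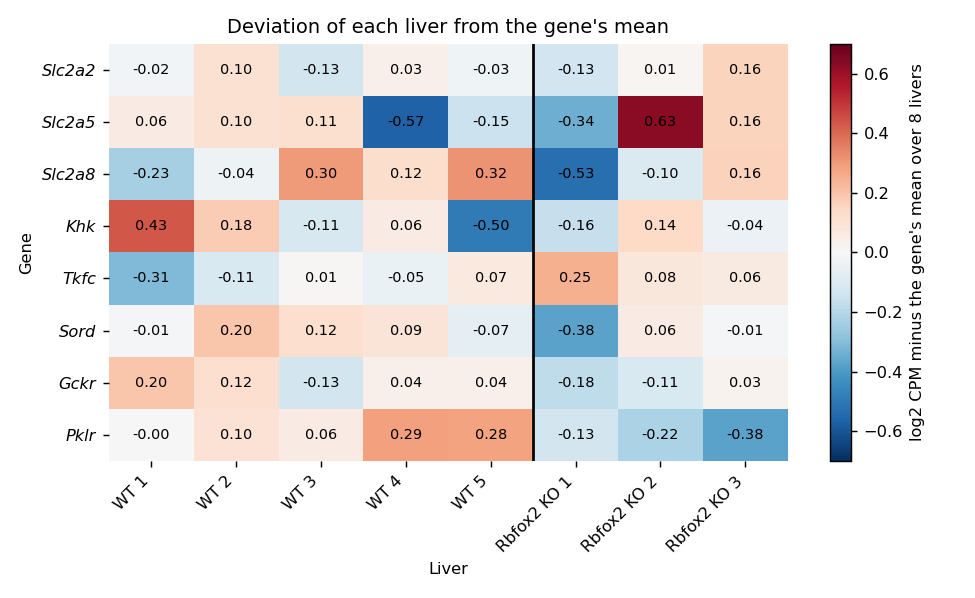
log2 CPM of each gene in each liver minus that gene's mean over the 8 livers, with the WT livers to the left of the line. WT 1 is 0.43 above the mean for Khk and 0.31 below it for Tkfc (-0.31), WT 5 is below the mean for Khk (-0.50) and above it for Tkfc (0.07), and the 3 Rbfox2 KO livers are below the mean for Pklr (-0.13 to -0.38).

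Sord encodes sorbitol dehydrogenase, the last enzyme of the polyol route from glucose to fructose. It was at 910, 1051, 995, 978 and 874 CPM in the WT livers and at 707, 956 and 913 CPM in the Rbfox2 KO livers. Rbfox2 KO 1 was below all other livers, and the other 2 Rbfox2 KO livers lay inside the WT range. The log2 fold change was -0.16 ± 0.13 (95% interval -0.46 to 0.13, edgeR unadjusted p = 0.244), and it was -0.05 without Rbfox2 KO 1. Of the Sord transcript 41.0% consists of 50-base stretches also found in Gm6652, a gene at 29.8 to 46.7 CPM, so the split of reads between them is uncertain.

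Of 7 other genes of the polyol route and hexose reduction 6 were tested, 2 higher and 4 lower in Rbfox2 KO livers, with a median log2 fold change of -0.06. None passed the threshold. Akr1b3, the aldose reductase that makes sorbitol from glucose, was at 4.01 to 6.28 CPM in WT and 4.05 to 8.85 CPM in Rbfox2 KO livers (log2 fold change 0.15 ± 0.25). Its sign turned to -0.26 without the 3 livers with the highest muscle marker sums. Dcxr, an L-xylulose reductase, had a log2 fold change of -0.16 ± 0.24, Akr1b10 one of -0.12 ± 0.29 and Akr1b8 one of 0.24 ± 0.26.

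Gckr encodes a regulatory protein that restrains glucose phosphorylation in hepatocytes, a restraint that fructose 1-phosphate lifts. It was at 125, 119, 99.99, 112 and 112 CPM in the WT livers and at 96.7, 102 and 111 CPM in the Rbfox2 KO livers. Rbfox2 KO 1 was lowest and WT 1 highest, and the groups overlapped. The log2 fold change was -0.14 ± 0.10 (95% interval -0.36 to 0.09, edgeR unadjusted p = 0.198), and it stayed negative, between -0.20 and -0.04, in all 19 alternatives.

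Pklr encodes the pyruvate kinase of liver and red cells, the last step of glycolysis. It was at 45.3, 48.6, 47.3, 55.5 and 55.2 CPM in WT livers 1 to 5 and at 41.5, 38.9 and 34.96 CPM in Rbfox2 KO livers 1 to 3. All 3 Rbfox2 KO values were below the lowest WT value. The means were 50.4 ± 4.69 CPM (SD, n = 5) and 38.4 ± 3.29 CPM (SD, n = 3), and the log2 fold change was -0.39 ± 0.10 (SE, 95% interval -0.62 to -0.16). The unadjusted edgeR p was 0.00368, which ranked 81 among 14654 genes, and the adjusted p was 0.663. The two-sided exact permutation test gave p = 0.0179, the smallest value that this design allows. Among the 8 genes 1 had groups without overlap and was lower in Rbfox2 KO livers, as did 266 of all tested genes (1.82%), and 0 were higher without overlap, as were 277 of all tested genes (1.89%, or 3.71% in either direction). At an unadjusted p of 0.05 the count was likewise 1 of 8, beside 4.74% of all tested genes.

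The Pklr difference kept its direction in all 19 alternatives, between -0.46 and -0.27. Scaling by library totals gave the smallest, with an unadjusted p of 0.184, and DESeq2 gave the lowest adjusted p, 0.105. It was -0.35 without the 3 livers with the highest muscle marker sums (unadjusted p = 0.0189). Of the merged Pklr exons 22.0% lie opposite exons of Hcn3, which itself had 0 to 0.315 CPM.

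Pklr supplied 82.5 ± 2.17% of the CPM per kb of the pyruvate kinase genes in WT livers and 76.9 ± 6.35% in Rbfox2 KO livers, with Pkm, the form of most other cell types, as the remainder. The share was 69.8% in Rbfox2 KO 1 and 79.2 to 85.8% in the other 7 livers. Pkm was at 12.1 to 20.9 CPM in WT and 13.3 to 27.8 CPM in Rbfox2 KO livers (log2 fold change 0.15 ± 0.26). It turned to -0.28 without Rbfox2 KO 1, the liver with the acinar transcripts, whose part in the share was not tested.

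**Figure D4:**
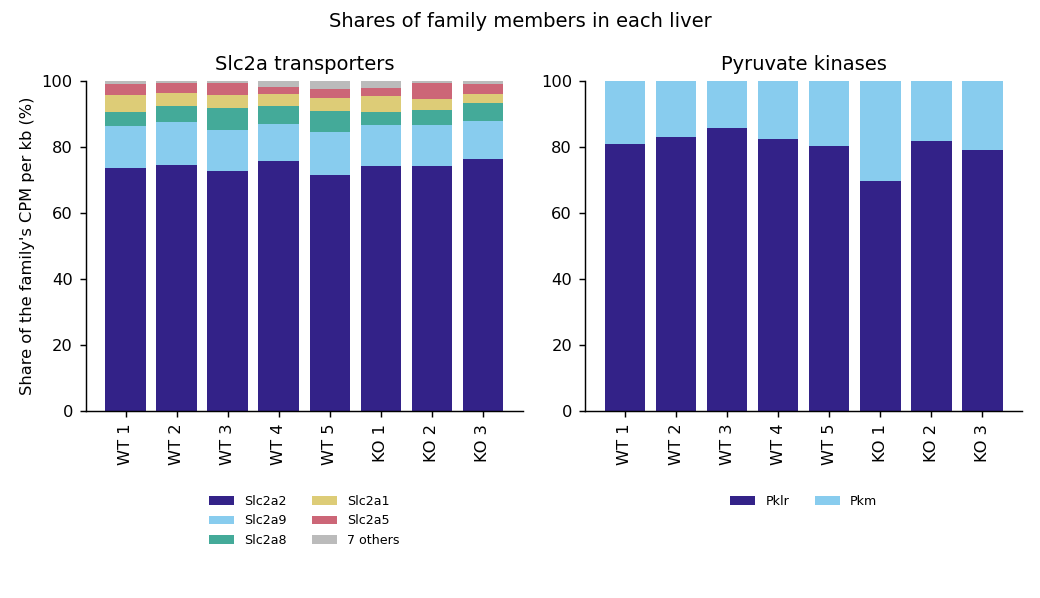
Share of each gene in the summed CPM per kb of its family (%), 1 bar per liver, for Slc2a transporters and pyruvate kinases. Slc2a2 and Pklr hold the largest share of their family in all 8 livers, and the Pklr share is lowest in Rbfox2 KO 1 (69.8%).

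The steps around these genes were read from lists of related genes. Of 14 other hexose transporters 6 were tested, 1 higher and 5 lower in Rbfox2 KO livers, with a median log2 fold change of -0.08 beside 0.000953 for all tested genes, and none passed the threshold. Slc2a1 had a log2 fold change of -0.23 ± 0.17, Slc2a9 one of -0.06 ± 0.10 and Slc2a6 one of 0.48 ± 0.36. The other 8, among them the sodium-driven fructose carrier Slc5a10, reached at most 6 counts in any liver.

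Of 26 genes of hexose phosphorylation, glycolysis and the triose steps 25 were tested, 14 higher and 11 lower, with a median of 0.01 and none past the threshold. Pfkfb1, the liver enzyme that sets fructose 2,6-bisphosphate, was at 12.8 to 17.9 CPM in WT and at 7.69 to 10.2 CPM in Rbfox2 KO livers, without overlap. Its log2 fold change was -0.62 ± 0.14 (edgeR unadjusted p = 0.00151, adjusted p = 0.434, and DESeq2 adjusted p = 0.0402). It kept its direction in all 19 alternatives, from -0.69 to -0.43. Ldha, a lactate dehydrogenase named here after its values were seen, did not overlap in the other direction, at 1084 ± 85.9 and 1234 ± 41.6 CPM (log2 fold change 0.19 ± 0.11, edgeR unadjusted p = 0.129). Thus 1 of the 25 was lower and 1 higher without overlap, beside 1.82% and 1.89% of all tested genes. DESeq2 called 0.409% of its genes at an adjusted p of 0.05. The rate-limiting kinase gene Pfkl had a log2 fold change of -0.04 ± 0.09, Pfkp one of 0.33 ± 0.21, Pfkfb4 one of 0.42 ± 0.37, Aldoa one of 0.12 ± 0.11 and Aldoc one of -0.42 ± 0.22.

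Of 17 genes made up of the carbohydrate response element binding protein, its partners and its known targets, all were tested, 8 higher and 9 lower, with a median of -0.05 and none past the threshold. Mlxipl, the factor itself, was at 101 to 122 CPM in WT and 84.9 to 125 CPM in Rbfox2 KO livers (log2 fold change -0.05 ± 0.14). Its sign turned with library totals (0.04). Fgf21, a hormone that the liver releases on fructose, had a log2 fold change of 0.73 ± 0.25 (edgeR unadjusted p = 0.0172, adjusted p = 0.894) and was highest in Rbfox2 KO 1, at 24.3 CPM. Txnip had one of 0.02 ± 0.30, G6pc one of 0.10 ± 0.22 and Pnpla3 one of 0.48 ± 0.62. Thrsp (-0.78 ± 0.35) and Fasn (-0.46 ± 0.22), both lipogenic, had the lowest fold changes of this list, with unadjusted p values of 0.0552 and 0.0585 in edgeR. Other lipogenic genes of the list, named here after their values were seen, did not share 1 direction. Acly (0.21 ± 0.10, edgeR unadjusted p = 0.0607) and Elovl6 (0.04 ± 0.19) were higher. Acaca (-0.16 ± 0.12), Scd1 (-0.15 ± 0.30) and Me1 (-0.14 ± 0.15) were lower.

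**Figure D5:**
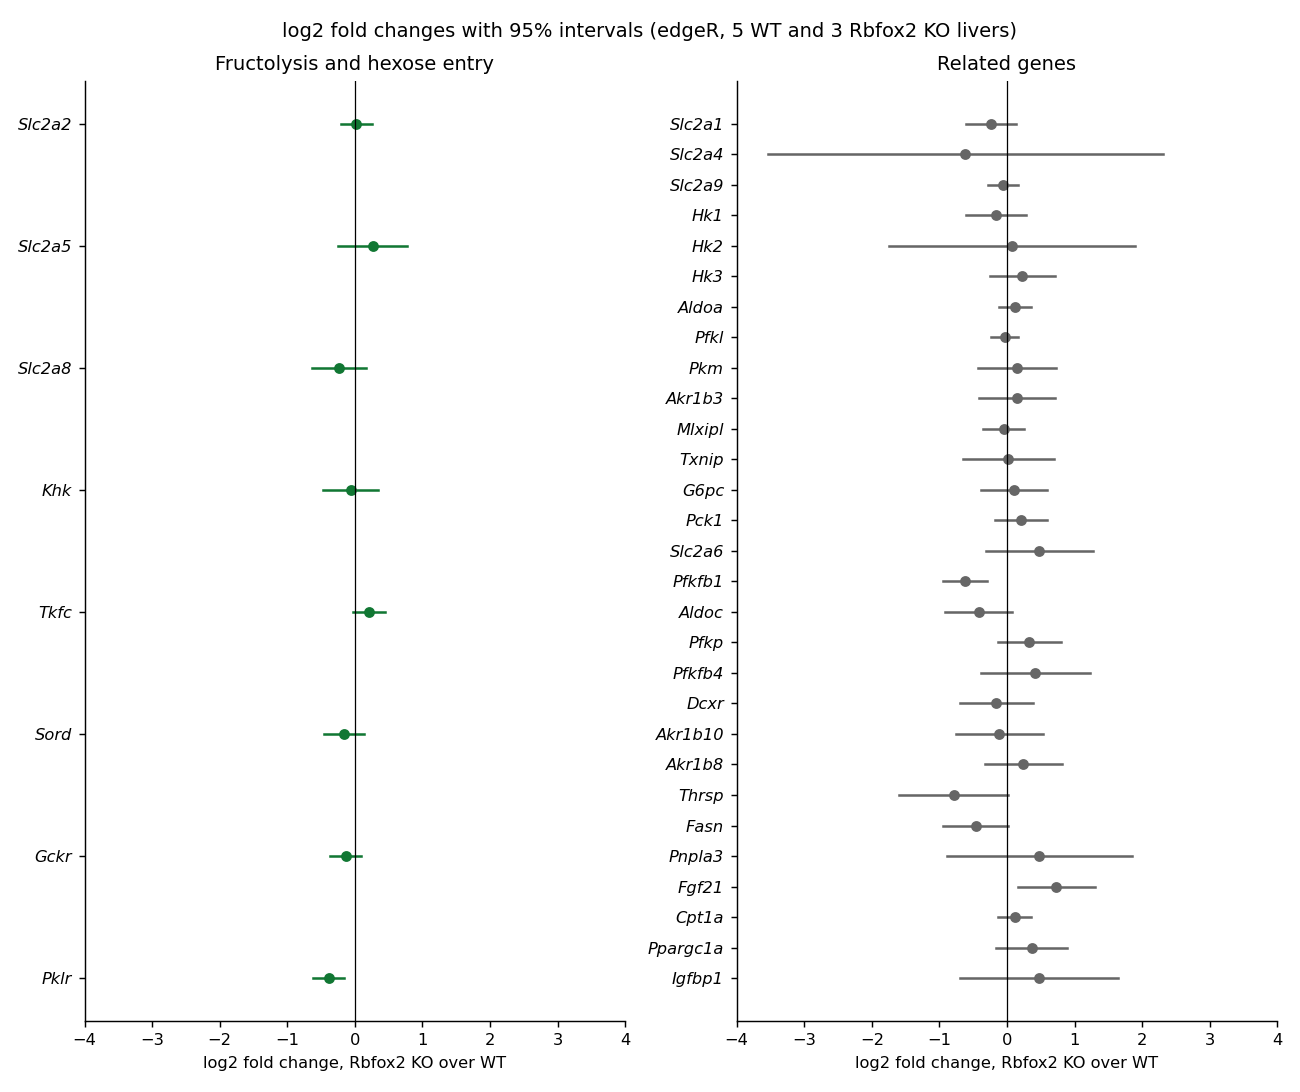
log2 fold changes of Rbfox2 KO over WT with 95% intervals from edgeR for the 8 genes (left) and for the named genes of the related lists (right). The Pklr interval, from -0.62 to -0.16, is the only one of the 8 that leaves out 0; on the right those of Pfkfb1 and Fgf21 do.

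The spread of the 8 genes over mice was uneven. The biological coefficient of variation was at percentile 7.17 of all tested genes for Slc2a2, 7.68 for Gckr, 9.95 for Pklr, 11.2 for Tkfc and 23.5 for Sord. It was at percentile 58.5 for Slc2a8 and 72.8 for Slc2a5, whose levels were at percentiles 44.98 and 36.3. Khk is thus the only one of the 8 with a high level and a middling spread.

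The transcripts that ran most like each gene over the 8 livers were taken from 12308 genes with a mean of at least 1 CPM. They were Mfsd7a (r = 0.98) and Pecr (0.96) for Khk, and Smc6 (0.96) and Ifi203-ps (0.95) for Tkfc. For the transporters they were mt-Nd5 (0.94) and Pls3 (0.92) for Slc2a2, Rom1 (0.93) and Gm17555 (0.93) for Slc2a5, and Uspl1 (0.99) and Lrit2 (0.98) for Slc2a8. They were Kri1 (0.99) and Sirt4 (0.97) for Gckr, Camkk2 (0.97) and Coq10a (0.95) for Pklr, and Cdadc1 (0.98) and D130043K22Rik (0.98) for Sord. The best matches of 12308 genes over 8 points are high by selection, and the values are a description of these livers.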

How the data were processed

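The authors aligned 100 bp paired-end reads to GRCm38 with TopHat2 2.0.11 and counted them per gene with featureCounts. The deposited values are whole-number counts per Ensembl gene for 8 livers, not normalized. The alignment was run with a setting for strand-specific libraries. How the counting treated strand and reads with several matches is not given in the sources used here. Counts were tested with edgeR 4.0.16 (R 4.3.3) after filterByExpr and TMM scaling, by the robust quasi-likelihood F test of Rbfox2 KO against WT with Benjamini-Hochberg adjustment over all 14654 tested genes. DESeq2 1.42.0 and limma-voom (limma 3.58.1) were alternatives, beside other scalings and filters. Means of single genes were compared by two-sided exact permutation over 56 splits. Gene lengths and overlaps come from the GENCODE annotation of GRCm38. Correlations used log2 CPM with a prior count of 2.

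The 8 genes and the related lists were chosen with earlier results of these data known. Beside them, Rbfox2 was named, with the 2 highest and 2 lowest fold changes of each related list, most key genes of each step, and the 2 genes most like each member. Libraries within a group differed far beyond sampling noise (chi-square per degree of freedom of 41.8 to 318 over 13 pairs). Symbols were matched for 45143 of the 46078 genes. The p-values set differences between the genotypes against the spread between these livers only. In edgeR the spread of each gene was moderated over all tested genes. Results on some genes of the related lists are not reported here. No measured column was left without a sample.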

Additional observations from a re-analysis of the deposited data

Results flagged for a closer look

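Among 50 values tested in the 5 WT livers, 1 had a liver far from the others by Dixon's gap over range (critical value 0.710), where chance gives about 1 in 20. The summed level of the 12 pancreatic acinar markers was 17.2 CPM in WT 1, against 4.78 to 5.29 CPM in the other 4 WT livers. None of the 8 fructolysis and hexose entry genes had such a liver. WT 1 also had the highest Khk and the lowest Tkfc value of all livers; the part of the acinar transcripts in those values was not tested.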

How the results depend on the processing

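None of the 8 genes passed the adjusted threshold in any alternative. Genes past it numbered 0, but 59 with DESeq2 (22 higher, 37 lower), 6 without a filter on low counts and 1 at an adjusted p of 0.1, namely Ggcx, named after its values were seen (log2 fold change -0.97). With a replicate block the count was 0, with 739 at an unadjusted p of 0.05 against 694; same-numbered livers correlated by 0.05 to 0.17 in their deviations, and not every liver correlated best with its own number, so the numbers were not taken to pair them. Of 64 values of the 8 genes with 1 liver left out 59 kept their sign, and of 88 under other alternatives 86.

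Signs turned with library totals for Khk (0.0463), Slc2a9 (0.0372), Pfkl (0.0938), Mlxipl (0.0395) and Akr1b10 (0.0202), with limma-voom for Hk2 (-0.145) and Txnip (-0.00584), and with the replicate block for Slc2a4 (1.37), Akr1b10 (0.0319) and Akr1b8 (-0.0231). Without WT 4, WT 5 and Rbfox2 KO 1, an alternative chosen after seeing the data, they turned for Slc2a8 (0.0128), Hk2 (-0.307), Hk3 (-0.123), Pkm (-0.0939), Akr1b3 (-0.261), Mlxipl (0.0853) and Akr1b8 (-0.135). With 1 liver left out the range spanned 0 for Khk (-0.170 to 0.0499996), Slc2a2 (-0.0540 to 0.0865), Slc2a5 (-0.00234 to 0.470), Hk2 (-1.38 to 0.592), Hk3 (-0.0256 to 0.407), Pfkl (-0.115 to 0.0184), Pkm (-0.281 to 0.332), Akr1b3 (-0.295 to 0.347), Mlxipl (-0.154 to 0.0986), Txnip (-0.244 to 0.286), G6pc (-0.0181 to 0.214), Dcxr (-0.253 to 0.0719), Akr1b10 (-0.439 to 0.0376) and Igfbp1 (-0.00129 to 0.784). The cause was not tested. Slc2a5 rested on 76 to 157 counts a liver and Slc2a8 on 139 to 265, the fewest of the 8 genes.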

Other observations

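The 3 livers with the highest skeletal muscle marker sums also had the highest values of Slc2a4 and Hk2. Slc2a4, the insulin-responsive transporter of muscle and fat, was at 1.68 CPM in WT 4, 2.31 CPM in WT 5 and 1.51 CPM in Rbfox2 KO 1, and at 0.0393 to 0.295 CPM in the other 5 livers. Hk2, the hexokinase of muscle, was at 1.92, 3.08 and 3.36 CPM in the same 3 livers and at 0.452 to 1.03 CPM elsewhere. Pfkm, the muscle phosphofructokinase, named here after its values were seen, was at 20.1 and 20.9 CPM in WT 4 and WT 5 but at 14.5 CPM in Rbfox2 KO 1, beside 12.9 to 14.3 CPM in the other 5 livers. The log2 fold changes were -0.62 ± 1.26 for Slc2a4 and 0.07 ± 0.80 for Hk2.

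Of 10 genes that fasting is known to raise in liver, all were tested, 9 higher and 1 lower in Rbfox2 KO livers, their median log2 fold change being 0.27, and none passed the threshold. Their summed level was 10356 to 11708 CPM in WT livers, 7823 CPM in Rbfox2 KO 1, and 14050.2 and 15038 CPM in Rbfox2 KO 2 and 3, so the Rbfox2 KO livers lay on both sides of the WT range. Pck1, an enzyme of glucose production, had a log2 fold change of 0.20 ± 0.17, Cpt1a, which admits fatty acids to mitochondria, one of 0.12 ± 0.11, Ppargc1a one of 0.37 ± 0.24 and Igfbp1 one of 0.47 ± 0.50. Hk1 (-0.17 ± 0.20) and Hk3 (0.23 ± 0.22) differed by about their standard error.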
